A study of Mus musculus with 2 samples.

Results

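The let-7 and miR-98 family was examined in small RNA libraries from jejunal tunica muscularis, the muscle wall of the small intestine, in *Dnmt1*-WT mice and in *Dnmt1*-KO mice. Its members were chosen by name, as every mature entry that begins with mmu-let-7 or is called mmu-miR-98, whatever the letter, copy or arm. There were 22 such entries among the 1080 mature miRNAs listed, 11 from the 5′ arm of a hairpin (let-7j and let-7k, which carry no arm in their names, are counted here) and 11 from the 3′ arm, and all 22 were above 0 in both libraries.

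Both libraries came from animals of 15 days on a C57BL/6 background. In each, the strain label combines the transgene Tg(Myh11-cre,-EGFP)2Mik/J with the Dnmt1lox/lox allele, and the groups are told apart by the genotype entry, Dnmt1 WT or Dnmt1 KO. Cre is driven here by the promoter of *Myh11*, the smooth muscle myosin heavy chain, so recombination is directed to smooth muscle and the other cells of the muscle wall keep the allele. *Dnmt1* encodes the methyltransferase that copies CpG methylation onto new DNA strands. The WT sample also has a free-text label with the mutant genotype, which was not followed, and small RNA does not measure *Dnmt1*, so its loss was not checked in these libraries. The paper gives *Dnmt1*-WT animals as smMHC Cre-eGFP/+ and *Dnmt1*-KO animals as smDnmt1-/-;Cre-eGFP/+, so that Cre and eGFP are shared by both groups. That WT genotype names no lox allele, unlike the strain label. There was 1 library per genotype. The methods name males and females of both genotypes without saying whether their small RNA was pooled, so no value below has a spread between animals, and each interval covers counting error only.

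let-7 was among the earliest miRNAs known, as a timing switch in worm development, and in mammals its mature forms accumulate as cells differentiate. A member pairs with target mRNAs mainly through its seed, bases 2 to 8, and members of a family share it. Each hairpin is cut into a 5p and a 3p product. In this family the 5p strand is the guide that is loaded into Argonaute, whereas the 3p strand, the passenger, is mostly degraded. The RNA-binding proteins LIN28A and LIN28B block the maturation of many let-7 precursors.

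The guide sequences are shown first because they differ by few bases, and this decides how well reads can be told apart. Capitals mark the seed. All 22 members matched a RefSeq mature sequence (GRCm38.p6).
mmu-let-7c-5p: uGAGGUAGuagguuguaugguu
mmu-let-7a-5p: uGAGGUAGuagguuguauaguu
mmu-let-7f-5p: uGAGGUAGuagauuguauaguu
mmu-let-7b-5p: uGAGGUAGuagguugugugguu
mmu-let-7d-5p: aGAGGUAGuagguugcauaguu
mmu-let-7i-5p: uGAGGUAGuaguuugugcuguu
mmu-let-7g-5p: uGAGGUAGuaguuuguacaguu
mmu-let-7e-5p: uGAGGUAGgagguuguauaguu
mmu-miR-98-5p: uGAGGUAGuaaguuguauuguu
mmu-let-7j: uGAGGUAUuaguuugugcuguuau
mmu-let-7k: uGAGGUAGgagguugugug

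The same seed was shared by 10 of the 11. The exception was let-7j, whose seed differs at its last base. Counting positions from 1 at the 5′ end and naming the base of let-7a-5p first, let-7c-5p differed from let-7a-5p only by A19G, let-7f-5p only by G12A and let-7e-5p only by U9G. let-7b-5p differed by A17G and A19G, let-7d-5p by U1A and U16C, let-7g-5p by G12U and U18C, and miR-98-5p by G11A and A19U. The furthest of the abundant guides was let-7i-5p, with 4 substitutions. Outside the family, 1 other listed miRNA with a RefSeq match, miR-1961, had this seed, at a value of 1.0 in WT and 0.0 in KO.

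Most deposited values are read counts multiplied by a factor close to 1 for each library (88.6% of 229 values examined in WT and 91.1% of 248 in KO), so 1 unit was taken as about 1 read. Library totals were 5741906 in WT and 4754677 in KO. Entries of high abundance weigh on these totals: miR-143-3p, a smooth muscle miRNA, held 30.9% of WT and 25.9% of KO. The factors do not make the totals equal, and dividing by the totals instead multiplies every KO/WT ratio by 1.208. The members whose direction depends on this choice are named, whereas the make-up of the family and the balance of arms are the same under any scaling.

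Summed over its members, the family gave 800086 in WT and 733623 in KO, a KO/WT ratio of 0.917 (95% exact binomial interval 0.914 to 0.920). As a share of the library, it held 13.9% of WT (95% Wilson interval 13.91 to 13.96%) and 15.4% of KO (15.40 to 15.46%). The sum was thus lower in KO on the deposited scale and higher in KO as a share of reads, with a ratio of 1.11. Without miR-143-3p in the totals, the shares were 20.2% and 20.8%, a ratio of 1.03. Without let-7c-5p, the rest of the family summed to 461856 and 454165, a ratio of 0.983 (0.979 to 0.987), and here too the direction depended on the scaling, with 1.19 for equal totals.

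On the deposited scale, markers of cell types moved between the same libraries. The 6 smooth muscle miRNAs looked at (both arms of miR-143 and miR-145a, with miR-133a-3p and miR-1a-3p) were all present and all lower in KO, with a summed value of 2217437 in WT and 1446514 in KO. The 6 leukocyte miRNAs (both arms of miR-142a, miR-223-3p, miR-150-5p, miR-155-5p and miR-342-3p) were all present and all higher in KO, with sums of 5850.5 and 9867. Of the 8 epithelial miRNAs (miR-200a-3p, miR-200b-3p, miR-200c-3p, miR-141-3p, miR-429-3p, miR-192-5p, miR-194-5p and miR-215-5p), 4 were higher and 4 lower, with sums of 14503 and 18129. No marker was at 0 in either library. As shares of the library, the smooth muscle sum went from 38.6% in WT to 30.4% in KO. The leukocyte sum went from 0.102% to 0.208% and the epithelial sum from 0.253% to 0.381%. How many single markers keep their direction with equal totals was not counted. By flow cytometry, the paper reports more immune cells and fewer smooth muscle cells in *Dnmt1*-KO muscle. The leukocyte and smooth muscle miRNAs ran that way under the column labels, but markers were not used to assign genotypes. Their part in the let-7 values was not tested, and in this whole tissue fewer cells of a type and less RNA per cell cannot be told apart.

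**Figure D1:**
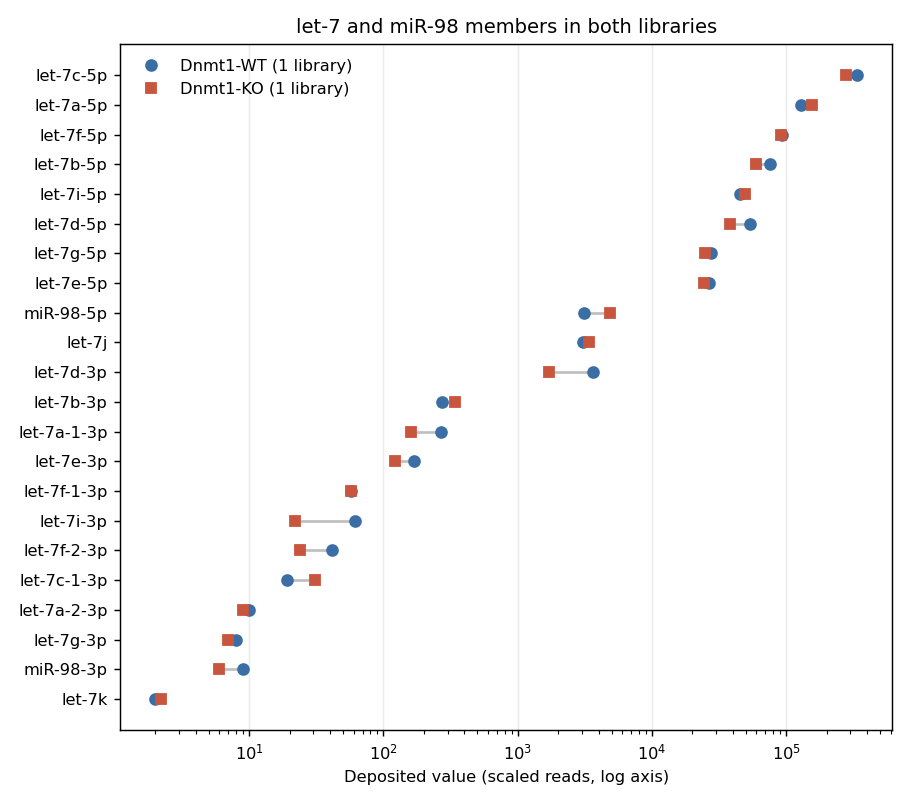
Deposited value (scaled reads, log axis) of each of the 22 members, with a circle for the *Dnmt1*-WT library and a square for the *Dnmt1*-KO library, joined by a line. The 8 most abundant guides lie between 24427 and 338229, and among members with a value of at least 1000 in both libraries the widest gaps are those of let-7d-3p (3633 and 1708) and miR-98-5p (3090 and 4896).

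Nearly all of the family was made up of 8 guides, which held 98.7% of it in WT and 98.5% in KO. The leading member was let-7c-5p, with 338229 in WT and 279459 in KO. It ranked 3rd of all mature miRNAs in WT and 4th in KO. Its ratio was 0.826 (0.822 to 0.830) on the deposited scale and 0.998 with equal totals, and it held 5.89% of the WT and 5.88% of the KO library. let-7a-5p, which differs from it at 1 base, stood at 128852 in WT and 155631 in KO, a ratio of 1.21 (1.20 to 1.22). let-7a-5p was higher in KO under each of the 5 scalings compared, whereas the direction of let-7c-5p depended on the scaling. The 4 other scalings all raise KO/WT ratios, by factors of 1.024 to 1.229. A member above 1 as deposited, such as let-7a-5p, therefore stays above 1 under each, and only a member below 1 can change side.

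let-7f-5p stood at 93364 and 92065. Its ratio was 0.986 (0.977 to 0.995) as deposited and 1.19 with equal totals. On the deposited scale, let-7b-5p went the way of let-7c-5p, from which it differs by A17G. It stood at 75839 in WT and 59075 in KO, a ratio of 0.779 (0.771 to 0.787). let-7d-5p, the only guide here that begins with an A, stood at 53991 and 38086. Its ratio of 0.705 (0.696 to 0.715) was the lowest of any guide. let-7b-5p and let-7d-5p were lower in KO under all 5 scalings.

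let-7i-5p stood at 45266 in WT and 49280 in KO, a ratio of 1.09 (1.07 to 1.10). Being above 1 as deposited, it stayed so under all 5 scalings. The order of let-7d-5p and let-7i-5p was therefore opposite in the libraries. let-7g-5p had 27432 and 24815, a ratio of 0.905 (0.889 to 0.920), and let-7e-5p had 26381 and 24427, a ratio of 0.926 (0.910 to 0.942). Both became higher in KO with equal totals, at 1.09 and 1.12.

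miR-98-5p, a let-7 by sequence in spite of its name, was far rarer than these guides but had the highest ratio of them. Its value was 3090 in WT and 4896 in KO, a ratio of 1.58 (1.51 to 1.66), so it stayed above 1 under all 5 scalings. Its rank among mature miRNAs went from 82 in WT to 64 in KO.

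The make-up of the family does not depend on the scaling. In WT, let-7c-5p took 42.3% of all let-7 and miR-98 reads (Wilson interval 42.17 to 42.38%) and in KO 38.1%. let-7a-5p took 16.1% of the family in WT (16.02 to 16.19%) and 21.2% in KO, a gain of 5.11 percentage points, the largest of any member. Smaller gains were seen for let-7f-5p, from 11.7% to 12.5%, and let-7i-5p, from 5.66% to 6.72%. let-7b-5p went from 9.48% to 8.05% and let-7d-5p from 6.75% to 5.19%. let-7g-5p and let-7e-5p kept close to the same share, with 3.43% against 3.38% and 3.30% against 3.33%. miR-98-5p went from 0.386% to 0.667%.

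**Figure D2:**
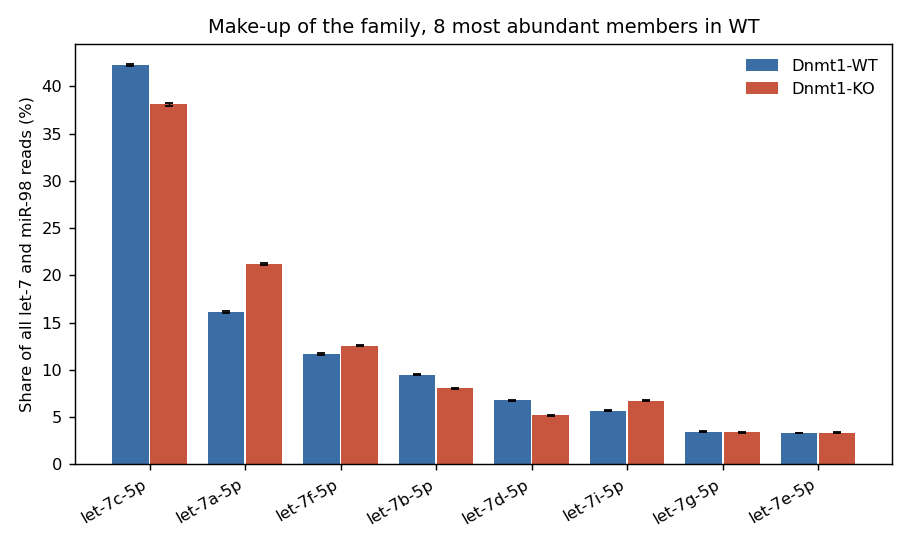
Share of all let-7 and miR-98 reads (%) held by the 8 guides most abundant in WT, in the *Dnmt1*-WT and the *Dnmt1*-KO library, with 95% Wilson intervals (counting error only, 1 library each). let-7c-5p goes from 42.3% to 38.1% and let-7a-5p from 16.1% to 21.2%.

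Among the 5p members, 6 pairs differed at 1 base over their shared length, and the treatment of reads that match either of such a pair is not given in the sources used here. The widest difference of log2 ratios in these pairs was 0.55, between let-7c-5p and let-7a-5p. Their summed value was 467081 in WT and 435090 in KO, a ratio of 0.932 (0.928 to 0.935), against 0.826 and 1.21 for the members apart. With equal totals the ratio of the sum was 1.12, on the other side of 1. let-7a-5p and let-7f-5p were 0.29 log2 units apart, and let-7a-5p and let-7e-5p 0.38. let-7c-5p and let-7b-5p differed by only 0.08. Whether reads moved between such entries was not tested.

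The remaining 5p entries, let-7j and let-7k, are less certain as members. let-7j equals let-7i-5p over 22 bases but for G8U, with 2 further bases at its 3′ end. It was listed at 3087 in WT and 3396 in KO, a ratio of 1.10 (1.05 to 1.16) that is close to the 1.09 of let-7i-5p. The value of let-7j was 6.82% of that of let-7i-5p in WT and 6.89% in KO. let-7k, of 19 bases, equals let-7b-5p over that length but for U9G and was listed at 2.0 and 2.2, under the floor of 3 reads in both libraries. Its KO value was the only 1 of 22 member values up to 1000 that was not a whole number of reads (tolerance 0.06).

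The passenger strands are shown next, because guide and passenger of the same name often had different ratios. Capitals again mark bases 2 to 8.
mmu-let-7d-3p: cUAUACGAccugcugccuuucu
mmu-let-7b-3p: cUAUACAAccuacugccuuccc
mmu-let-7a-1-3p: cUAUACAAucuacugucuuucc
mmu-let-7e-3p: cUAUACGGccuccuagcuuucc
mmu-let-7i-3p: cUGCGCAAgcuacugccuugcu
mmu-let-7f-2-3p: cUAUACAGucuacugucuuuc

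The 3p members had 8 different seeds, none of them that of the guides. A single passenger seed was shared by several members, namely let-7b-3p, let-7a-1-3p, let-7f-1-3p and miR-98-3p. The product let-7c-2-3p, which is not listed as an entry of its own, has the same sequence as let-7a-1-3p, so reads of that entry can come from either hairpin. Together the 11 passengers gave 4553 in WT and 2491 in KO, a ratio of 0.547 (0.521 to 0.575) as deposited and 0.661 with equal totals. They made up 0.569% of the family in WT and 0.340% in KO. let-7d-3p alone held 3633 of the WT and 1708 of the KO sum, so neither the ratio nor the shares describe the other passengers.

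let-7d-3p was the one abundant passenger, with 3633 in WT and 1708 in KO. Its ratio was 0.470 (0.444 to 0.498) as deposited and 0.568 with equal totals. It made up 6.31% of the reads of both let-7d arms in WT (exact interval 6.11 to 6.51%) and 4.29% in KO (4.10 to 4.50%), or 1 passenger read for 14.9 and 22.3 guide reads. let-7i-3p had a lower ratio still, at 61.2 in WT and 21.9 in KO, with a ratio of 0.358 (0.209 to 0.591), while its guide was higher in KO. Its share of both arms went from 0.135% (0.103 to 0.173%) to 0.0444% (0.0278 to 0.0673%).

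let-7a-1-3p was listed at 269.8 and 159.6, a ratio of 0.592 (0.483 to 0.722), whereas let-7a-5p was at 1.21 and let-7c-5p, the guide of the other hairpin it can come from, at 0.826. With let-7a-2-3p, which had a ratio of 0.900 (0.324 to 2.47) on few reads, and with every read counted as let-7a, let-7a-1-3p made up 0.217% of let-7a reads in WT (0.192 to 0.244%) and 0.108% in KO (0.0925 to 0.126%). let-7b-3p went the other way. It stood at 274.8 in WT and 344.0 in KO, a ratio of 1.25 (1.07 to 1.47), and its share of both arms went from 0.361% (0.320 to 0.406%) to 0.579% (0.520 to 0.643%). These 4 names were the ones, of 9 with both arms listed, whose intervals did not overlap between the libraries, 3 with a lower and 1 with a higher passenger share in KO. For let-7a this rests on let-7a-1-3p, whose reads may be those of let-7c-2-3p. With let-7a-2-3p alone, the let-7a intervals overlapped (0.00372 to 0.0143% in WT and 0.00265 to 0.011% in KO). The share of let-7c was taken from let-7c-1-3p only. Over all 227 names with both arms above 0 in both libraries, let-7 and miR-98 included, the share of the rarer arm was lower in KO with intervals apart for 12.8% and higher for 10.6%. Intervals narrow with depth, and the let-7 names were not matched on it.

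The other passengers rested on few reads. let-7e-3p stood at 169.5 and 122.7 (ratio 0.724, interval 0.569 to 0.919), let-7f-1-3p at 57.2 and 57.8, let-7f-2-3p at 41.1 and 23.9 (ratio 0.582, 0.336 to 0.986) and let-7c-1-3p at 19.1 and 30.9. let-7g-3p was at 8.0 and 7.0 and miR-98-3p at 9.0 and 6.0, and their ratios had intervals of 0.270 to 2.76 and 0.195 to 2.10. A 2-fold difference either way was thus not detectable at this depth for these 2 passengers. Over all 9 names, with let-7a-1-3p counted as let-7a and not as let-7c, the passenger share was lower in KO for 7 and higher for 2. Over the 227 names, the share of the rarer arm was lower for 49.8% and higher for 50.2%. The passenger share was under 1% in both libraries for 8, the exception being let-7d.

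**Figure D3:**
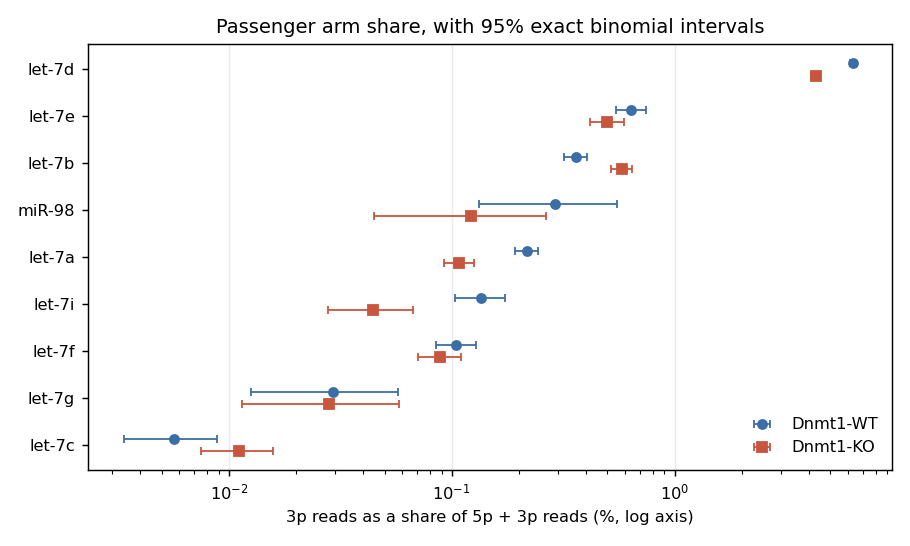
Passenger (3p) reads as a share of the reads of both arms (%, log axis) for the 9 names with both arms listed, listed copies summed, in the *Dnmt1*-WT and *Dnmt1*-KO libraries, with 95% exact binomial intervals. let-7a-1-3p is counted as let-7a only, though its reads can also come from Mirlet7c-2. let-7d is at 6.31% and 4.29%, and the intervals of let-7a, let-7b, let-7d and let-7i do not overlap between libraries.

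The size of the differences was then read against all mature miRNAs, in which the members are included. None of the 22 members was at least 2-fold higher in KO, against 15.2% of the 763 mature entries above 0 in both libraries. On the deposited scale 2 members (9.09%), let-7d-3p and let-7i-3p, were at least 2-fold lower, against 11.4%. With equal totals let-7d-3p was at 0.568, and only let-7i-3p, at 0.432, was at least 2-fold lower. The 15.2% and 11.4% hold for the deposited scale, and the shares of all mature entries with equal totals were not counted. Of the 11 members whose mean over both libraries reached 1000, miR-98-5p was at least 1.5-fold higher, as were 14.0% of the 136 mature entries at that level. let-7d-3p was at least 1.5-fold lower, as were 22.8% of them. The median log2 ratio was -0.13 over the 18 members whose mean reached 10, and 0.04 over the 522 mature entries that did. At 1000 and above, the medians were -0.11 and -0.13.

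Between the quartiles, these 11 members lay between -0.32 and 0.13 in log2 ratio, and that of all 136 entries between -0.51 and 0.33. Within the family, 8 members were below 1 and 8 above 1 under each of the 5 scalings, while 6 changed side. Those below were let-7b-5p, let-7d-5p, let-7d-3p, let-7a-1-3p, let-7e-3p, let-7i-3p, let-7f-2-3p and miR-98-3p, and those above were let-7a-5p, let-7i-5p, miR-98-5p, let-7j, let-7b-3p, let-7f-1-3p, let-7c-1-3p and let-7k, the last under the floor of 3 reads. The 6 others were let-7c-5p, let-7f-5p, let-7g-5p, let-7e-5p, let-7a-2-3p and let-7g-3p. Of the members that kept their side, let-7f-1-3p, let-7c-1-3p, let-7k and miR-98-3p had counting intervals that included 1 as deposited. Those of let-7e-3p and let-7f-2-3p ended at 0.919 and 0.986, and intervals were not worked out under the other scalings.

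The family is encoded at 8 places in the mouse genome (12 hairpins, GRCm38), apart from let-7j and let-7k, which lie on chromosomes 3 (140028249 to 140028370, plus strand) and 5 (147283189 to 147283298, minus strand) and overlap no further gene of the annotation. On chromosome 13, Mirlet7a-1 (48538179 to 48538272), Mirlet7f-1 (48537829 to 48537917) and Mirlet7d (48536012 to 48536114) lie on the minus strand in exons of the long noncoding RNA 6720427I07Rik. Of the products that come from no other place, let-7d-5p and let-7d-3p were at 0.705 and 0.470 and let-7f-1-3p at 1.01 (0.689 to 1.48), while let-7a-1-3p, which may also come from Mirlet7c-2, was at 0.592. The interval of let-7d-3p overlapped neither that of let-7d-5p nor that of let-7f-1-3p, whereas those of let-7d-5p and let-7f-1-3p overlapped.

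On the X chromosome, Mirlet7f-2 (151912346 to 151912428) and Mir98 (151913214 to 151913321) lie on the plus strand in an intron of *Huwe1*, which encodes a ubiquitin ligase, with 785 bases between them. let-7f-2-3p was at a ratio of 0.582 (0.336 to 0.986) and miR-98-5p at 1.58 (1.51 to 1.66). The passenger miR-98-3p, at 0.667 (0.195 to 2.10), had an interval that overlapped those of both let-7f-2-3p and miR-98-5p. On chromosome 15, Mirlet7c-2 (85706603 to 85706697) and Mirlet7b (85707319 to 85707403) lie on the plus strand in exons of *Lncppara*. Of this pair only let-7b has products of its own, at 0.779 for the guide and 1.25 for the passenger.

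Single let-7 hairpins stand at the other places. Mirlet7g lies in an intron of *Wdr82* (chromosome 9, 106178840 to 106178927, plus strand), and Mirlet7i (chromosome 10, 122985640 to 122985724, minus strand) in an exon of the transcribed pseudogene D630033A02Rik. On the plus strand of chromosome 9, Mirlet7a-2 (41536716 to 41536811) lies in introns of 3110039I08Rik and Gm49317. On the plus strand of chromosome 16, Mirlet7c-1 (77599657 to 77599750) lies in an intron of *Mir99ahg* and antisense to an intron of Gm11146. On the plus strand of chromosome 17, Mirlet7e (17830352 to 17830444) lies in an intron of *Spaca6*, a gene for a sperm membrane protein. let-7a-5p, let-7c-5p and let-7f-5p each come from a pair of hairpins at different places, and their guide reads cannot be divided between them. The passengers differ by copy.

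Mirlet7a-2, Mirlet7c-1 and Mirlet7e each have a miR-99 or miR-100 hairpin and a miR-125 hairpin as neighbours, and these neighbours gave 11 listed products. Of these, 8 were lower and 3 higher in KO, with a median ratio of 0.804 and a range of 0.513 to 1.71, and none was 2-fold changed, against the 15.2% and 11.4% of mature entries given above. Of the 763 mature entries above 0 in both libraries, 323 were lower and 384 higher on the deposited scale. Among the 136 with a mean of at least 1000, 80 were lower and 56 higher. With equal totals 6 were lower and 5 higher, the median was 0.971 and miR-125a-3p (1.71 as deposited) passed 2-fold, at 2.06. The share of all mature entries past 2-fold was not counted at that scaling. The products that changed side were miR-99b-5p and miR-125b-1-3p, both from 0.895 to 1.08. Beside Mirlet7e, let-7e-5p was at 0.926, miR-99b-5p at 0.895 (0.881 to 0.909) and miR-125a-5p, with 129305 in WT and 68521 in KO, at 0.530 (0.525 to 0.535). The 3p product miR-99b-3p was at 0.656 (0.520 to 0.824). Beside Mirlet7c-1, miR-99a-5p stood at 1554 and 2423, a ratio of 1.56 (1.46 to 1.66), and let-7c-1-3p at 1.62 (0.886 to 3.03). miR-125b-2-3p was at 1.17 (1.06 to 1.29), apart from the interval of miR-99a-5p, and miR-99a-3p at 0.608 (0.260 to 1.36). Beside Mirlet7a-2, miR-100-5p was at 0.804 (0.778 to 0.830), miR-100-3p at 0.683 (0.287 to 1.57) and let-7a-2-3p at 0.900 (0.324 to 2.47). miR-125b-5p, which comes from a hairpin at either of these last places, was at 0.513 (0.506 to 0.520). Neighbours of 1 place thus did not always share a ratio, and let-7e-5p was closer to miR-99b-5p than to miR-125a-5p.

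**Figure D4:**
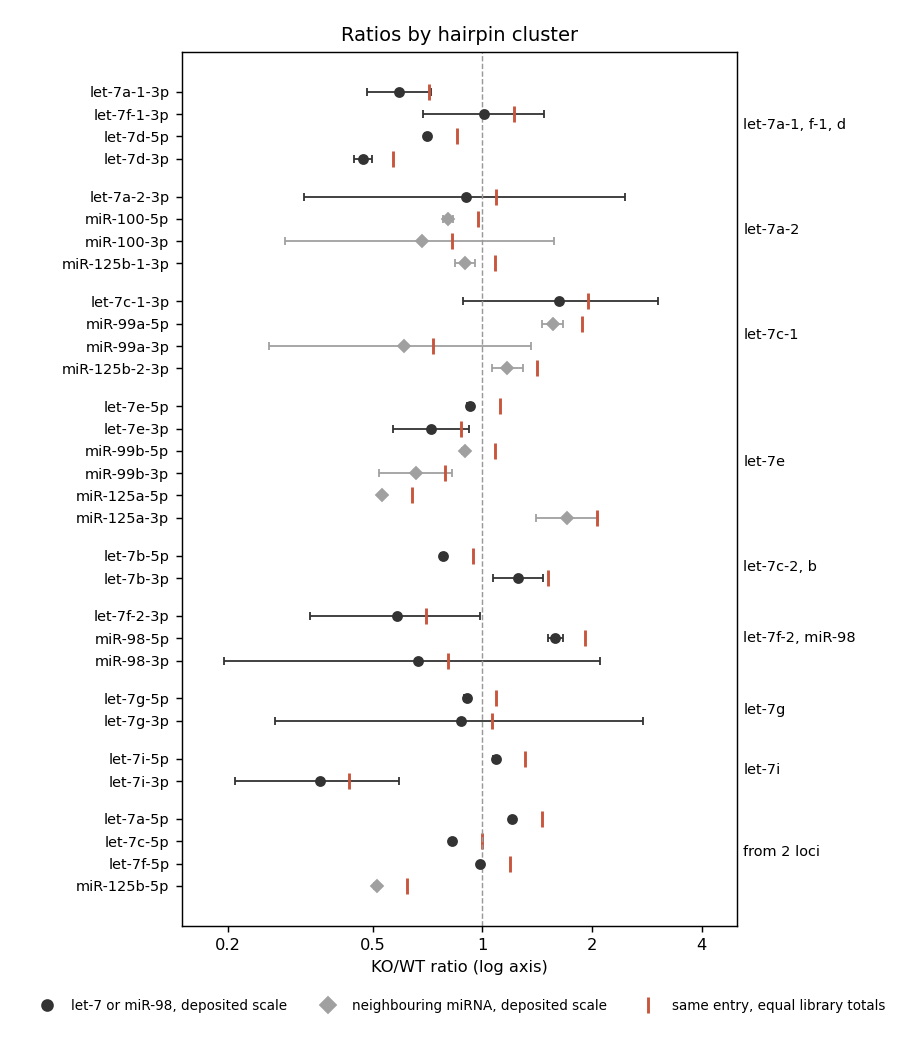
KO/WT ratio (log axis) of let-7 and miR-98 products (circles) and of miR-99, miR-100 and miR-125 neighbours (diamonds), grouped by hairpin cluster, with 95% exact binomial intervals on the deposited scale (1 library per genotype). The red tick gives the same ratio with equal library totals, which moves let-7c-5p from 0.826 to 0.998 and leaves miR-98-5p above 1 and let-7d-3p below 1.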

How the data were processed

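Small RNA of the jejunal tunica muscularis was isolated with a mirVana kit and made into Illumina TruSeq small RNA libraries, 1 for *Dnmt1*-WT and 1 for *Dnmt1*-KO. A commercial provider aligned and annotated the reads on GRCm38/mm10, and the submitters' processing notes name Bowtie. The scaling, the release of the miRNA database and how reads with several matching miRNAs were counted are not given in the sources used here. The deposited table gives scaled read counts with 1 decimal. Of the values from 20 to 300, 88.6% of 229 in WT were multiples, by a whole number, of 1.00284 and 91.1% of 248 in KO of 0.99718 (tolerance 0.06), so reads were taken as value divided by this step, 5725645 and 4768123 in all. Since part of the values are fractional, no count test was run. A column with the authors' fold change was not used.

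Intervals are 95% Clopper-Pearson (ratios, arms) or Wilson (other shares) and cover counting error only, as PCR reads that carry no molecular identifier do not each stand for a molecule. The floor of 3 reads is 5.24e-05% of WT and 6.29e-05% of KO. Every member is named, with the neighbouring miR-99, miR-100 and miR-125 products, miR-143-3p and markers. Members and lists were chosen with earlier results of these data known. Alternatives were 4 other scalings, a pseudocount of 1, minimum means of 10 and 1000, and other member sets. Hosts are from GENCODE M21, sequences from RefSeq (GRCm38.p6). Python 3.11.15, pandas 2.3.3, NumPy 2.4.6, SciPy 1.17.1 and Matplotlib 3.10.9 were used.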

Additional observations from a re-analysis of the deposited data

How the results depend on the processing

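No paired analysis was possible because there is 1 library per genotype, and no library could be left out. Scaling decided the direction of the family sum. Its ratio of 0.917 became 1.11 with equal library totals, 1.03 with equal totals without miR-143-3p, 1.13 with equal totals without the let-7 family, and 0.939 with the median ratio set to 1 over entries with a mean of at least 100. In the same order, the median log2 ratio of the members (-0.13) became 0.14, 0.04, 0.17 and -0.09 (chosen after seeing the data), let-7f-5p (0.986) became 1.19, 1.11, 1.21 and 1.01, let-7g-5p (0.905) became 1.09, 1.02 and 1.11 in the first 3, and let-7e-5p (0.926) became 1.12, 1.04 and 1.14. let-7c-5p (0.826) passed 1 only with equal totals without the let-7 family, at 1.02. A pseudocount of 1 put no member on the other side of 1. The count of members at least 2-fold lower, 2, was 1 with equal totals, with or without miR-143-3p or the let-7 family, since let-7d-3p then passed 0.5, and 1 at a mean of at least 1000, where let-7i-3p is left out. The count of members at least 2-fold higher was 0 throughout. Shares of all mature entries past 2-fold were counted only on the deposited scale, over entries above 0 in both libraries. A mean of at least 1000 gave a median log2 ratio of -0.11, and 5p entries alone -0.07. Without miR-143-3p in the totals the family held 20.2% of WT and 20.8% of KO. The share of let-7c-5p in the family was 42.4% of WT and 38.3% of KO without let-7j and let-7k, and 42.5% of WT over 5p entries alone. With 1 library per genotype, no depth can separate a difference between genotypes from one between animals.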
